A study of Mus musculus with 12 samples.

Results

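Reporter-positive (YFP+) and reporter-negative (YFP-) natural killer (NK) cells from the same kind of stimulation were compared. The comparison used 8 of the 12 samples of the series, 4 per group, chosen by the sort named in their labels and matched by the replicate labels f2, m2, m3 and m4. It covered 12364 of 55487 features in the authors' table, those with a log2 CPM (reads scaled to a fixed library total) above 0 in at least 4 of 12 samples. All samples, the 4 unstimulated ones included, came from mice of strain B6.129S4-Ifngtm3.1Lky/J with genotype mut/mut, and the labels describe the cells as IL-15 treated ("HD IL-15"). In this strain YFP, a fluorescent protein, is expressed from the Ifng locus, which encodes interferon gamma, so the sort separated cells by activity of that locus. YFP- samples are therefore stimulated cells sorted as low for the reporter, not untreated cells. YFP+ and YFP- samples had been treated with anti-NK1.1, an antibody against an activating receptor, for 6 h. The labels give no age, and they do not say whether a shared label means a shared mouse, so p-values measure the spread between these samples, which may be partly technical. The letter F in the titles of the f2 samples marks them as female, and the other 3 labels are male.

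NK cells answer engagement of an activating receptor by transcribing cytokine genes and secreting granule proteins. Secreted proteins are folded in the endoplasmic reticulum (ER), where the sensors IRE1, PERK and ATF6 watch over folding capacity and raise chaperones, export factors and, through the transcription factor ATF4, amino acid supply. Interferons act on neighbouring cells through their receptors, STAT and IRF factors, which induce antiviral GTPases and antigen presentation genes.

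Ifng itself checked the sort. Its level was 44.8, 54.5, 36.6 and 47.2 CPM in the YFP- samples f2, m2, m3 and m4, and 341, 328, 304 and 343 CPM in the YFP+ samples. The groups did not overlap, and unstimulated samples lay between 3.67 and 4.19 CPM. Libraries held 32.1 to 54.2 M reads, and 3 reads, the floor used here, corresponded to 0.0553 to 0.0933 CPM. Reads on rRNA-like features made up 15.9 to 30.3% of YFP- and 13.7 to 29.8% of YFP+ libraries, with m3 highest in both groups. YFP+ libraries varied more among themselves than YFP- libraries: the mean correlation of a library with its own group was 0.956 (m3), 0.959 (f2), 0.967 and 0.971 in YFP+ and 0.980 to 0.982 in YFP-. These correlations run across genes, which are not independent.

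All log2 differences below are YFP+ minus YFP- from a limma model that kept the label as a blocking term, with a standard error (SE) and a p adjusted over the 12364 genes (Benjamini-Hochberg). A gene was called when that p was under 0.05, and "rose" or "fell" refers to called genes on the deposited scale. By this rule 25.1% of all genes tested were called, 3.61% higher and 21.4% lower in YFP+. The median gene stood at -0.19. Scaling the recovered reads by a trimmed mean (hand-coded after the TMM method) moved the median to 0.00, and 25.4% of genes were then called, 10.5% higher and 14.8% lower. A set of 8 effector genes, Gzmb, Ccl4, Spp1, Ccl1, Ccl3, Gzmc, Xcl1 and Ifng, held a mean of 4.74% of reads in YFP- and 9.89% in YFP+ samples. Their part in the shift was not tested. For lists of genes, medians are given relative to the median of all genes, which removes this shift, and calls are on the deposited scale unless trimmed-mean scaling is named. The 4 YFP+ and 4 YFP- values did not overlap for 22.1% of genes, with YFP+ above in 533 genes and below in 2197.

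**Figure D1:**
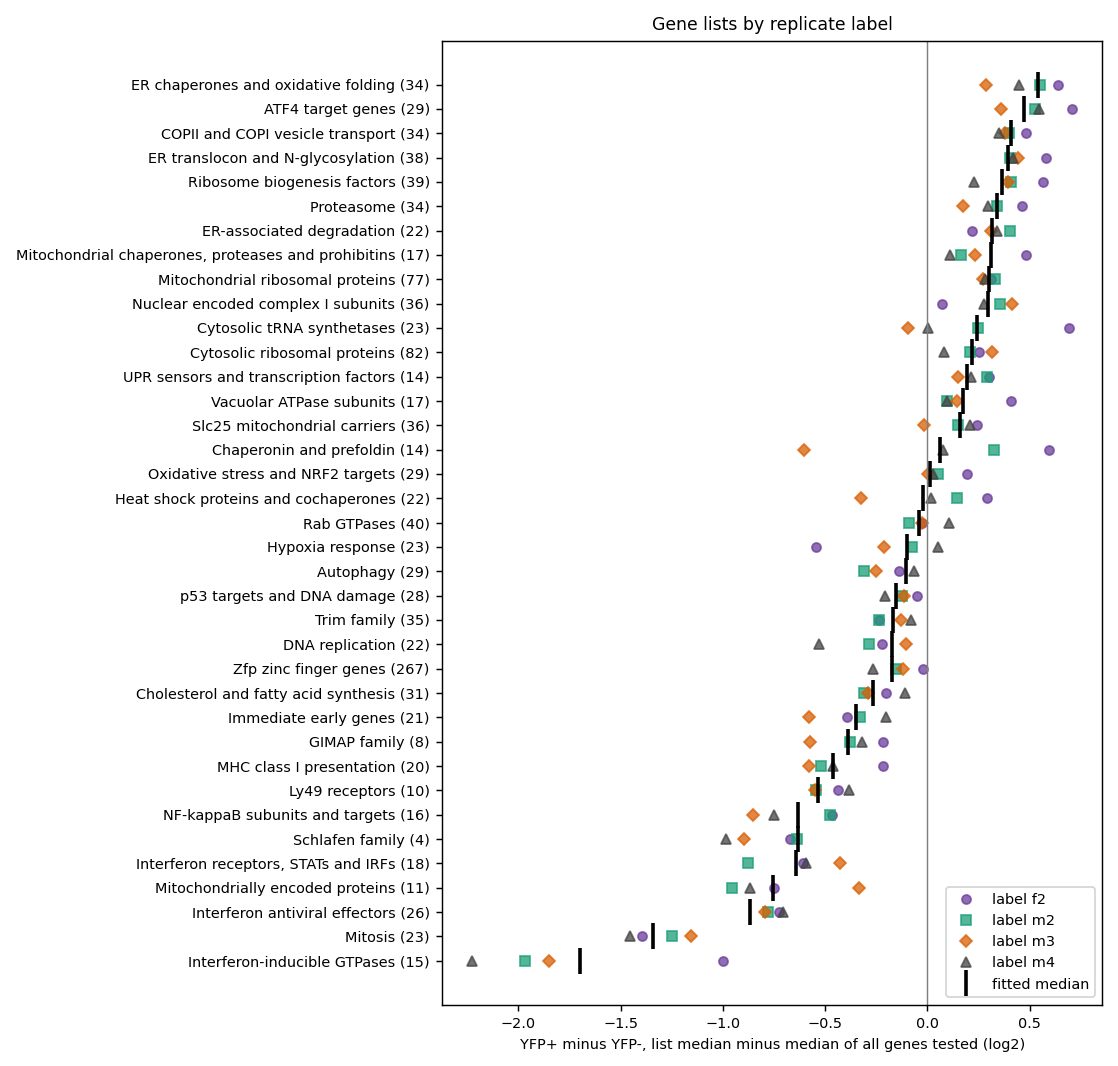
Median log2 difference (YFP+ minus YFP-) of each gene list minus the median of all genes tested, with the number of members tested in brackets. Coloured symbols are the 4 replicate labels and black bars the fitted medians, which run from 0.54 for ER chaperones to -1.70 for interferon-inducible GTPases.

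ER chaperones and folding enzymes stood above all genes by a median of 0.54 (SD over the 4 label pairs 0.15). Of 34 members tested, 12 rose and none fell on the deposited scale, and 17 rose under trimmed-mean scaling. A further member, Fkbp14, was below the filter. For 10 of the 34, every YFP+ value was above every YFP- value, beside 533 of all 12364 genes tested. Promoters of several members hold the ER stress response element, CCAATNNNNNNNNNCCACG, which is bound by ATF6 and NF-Y. Promoters matched by symbol for 8704 of 12364 tested genes (70.4%), so shares among tested genes leave out the rest. Searched on both strands in RefSeq promoters (GRCm38.p6, 250 bases before to 50 after a start site), it was found for 7 of 28 members with a promoter, 25%, against 13 of 8704 tested genes (0.149%) and 35 of 27025 promoters in all (0.13%). Each match overlaps a CCAAT box by construction. Among all calls the element was in 4 of 341 promoters of genes called higher (1.17%) and 0 of 2003 of genes called lower. The sequences show the 5 promoters described here, read along the gene, with the element in capitals:
Hspa5: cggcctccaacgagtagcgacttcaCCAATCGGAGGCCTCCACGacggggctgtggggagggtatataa
Pdia6: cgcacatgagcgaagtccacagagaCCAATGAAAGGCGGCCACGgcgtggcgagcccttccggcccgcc
Creld2: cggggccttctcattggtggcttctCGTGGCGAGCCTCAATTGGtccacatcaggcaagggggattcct
Dnajc3: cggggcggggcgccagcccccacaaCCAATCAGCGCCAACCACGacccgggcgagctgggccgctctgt
Hsp90b1: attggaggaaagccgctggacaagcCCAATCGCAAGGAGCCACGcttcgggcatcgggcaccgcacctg

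These stretches lie at chr2:34772000-34772068 (Hspa5, plus strand), chr12:17266466-17266534 (Pdia6, plus), chr15:88819495-88819563 (Creld2, plus), chr14:118937802-118937870 (Dnajc3, plus) and chr10:86705613-86705681 (Hsp90b1, minus). In Creld2 the element runs on the opposite strand, and Hsp90b1 has a second copy outside the stretch shown. Of the 7 carriers, Creld2, Dnajc3, Hsp90b1 and Pdia6 rose, Dnajc3 with a call that ended without the block (adjusted p = 0.054), whereas Hspa5, Calr and Canx were not called.

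Fkbp11, a prolyl isomerase of the secretory pathway, had the steepest change of the list. It stood at 5.94, 7.44, 6.45 and 8.83 CPM in YFP- f2, m2, m3 and m4 and at 28.2, 29.4, 32.9 and 25.6 CPM in YFP+. The difference was 2.03 (SE 0.30, limma adjusted p = 5.6e-04), and the groups did not overlap. Creld2, an ER resident folding factor, read 132, 167, 123 and 116 CPM in YFP- and 294, 342, 217 and 231 CPM in YFP+, a rise of 1.0 (SE 0.16, limma adjusted p = 8.0e-04).

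Manf, a small ER protein induced by folding stress, was the most even of the group. Its YFP- samples lay between 161 and 169 CPM and its YFP+ samples between 306 and 338 CPM, a rise of 0.96 (SE 0.10). Hyou1, an ER chaperone of the HSP70 family, went from 23.3 to 25.2 CPM in YFP- up to 38.2 to 54.1 CPM in YFP+, a rise of 0.89 (SE 0.15). Pdia6, a disulfide isomerase, rose by 0.65, Dnajc3, a BiP cochaperone, by 0.57 and Hsp90b1, the ER member of the HSP90 family, by 0.50.

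Hspa5, which encodes BiP, the central ER chaperone, did not pass. Its YFP- values were 935, 1879, 743 and 1455 CPM and its YFP+ values 3638, 2519.7, 870 and 1237 CPM. The groups overlapped, with f2 and m2 high and m3 and m4 low among YFP+ samples. The difference was 0.59 (SE 0.33, limma adjusted p = 0.21). Within labels YFP+ was higher in f2, m2 and m3 (870 against 743 CPM) and lower in m4 (1237 against 1455 CPM). A setting chosen after seeing the data, without YFP+ m3 and under trimmed-mean scaling, gave 1.03 with a limma adjusted p of 0.040. The m4 pair remained in that setting. The lectin chaperones Calr and Canx gave 0.40 and 0.06.

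The sensors and transcription factors above these genes moved little. Of 14 tested, 1 rose and none fell (2 and none under trimmed-mean scaling), and their median relative to all genes was 0.19. Creb3l2, a membrane-bound factor that is cut in the Golgi to act on secretory genes, was the 1 that rose, from 8.28, 11.3, 8.71 and 7.65 CPM in YFP- to 16.0, 16.6, 17.5 and 16.0 CPM in YFP+ (0.89, SE 0.17). Ern1 (IRE1), Eif2ak3 (PERK) and Atf6 gave 0.03, 0.29 and 0.16, none of them called. Xbp1, whose mRNA is spliced by IRE1, gave -0.16, with YFP+ m3 at 181 CPM against 401 to 487 CPM in the other YFP+ samples. Counts per gene do not separate the spliced from the unspliced form. Ddit3 (CHOP) read 35.6, 30.7, 25.1 and 29.1 CPM in YFP- and at most 35.5 CPM in YFP+ (0.02), and Ppp1r15a (GADD34) gave -0.46 with overlapping groups. Atf4 mRNA gave 0.27 (limma adjusted p = 0.13), which became a call at 0.46 under trimmed-mean scaling (adjusted p = 0.0080). Atf3 gave 0.48 and passed when the YFP+ m3 sample was left out (0.72, adjusted p = 0.034).

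**Figure D2:**
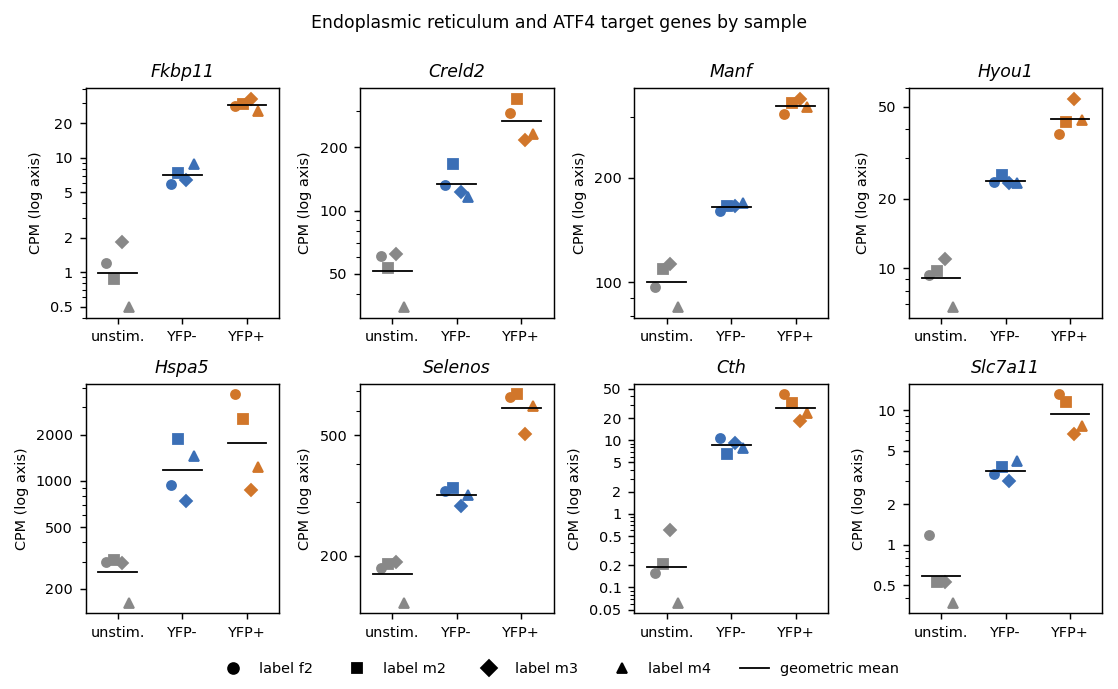
CPM on a log axis in each of the 12 samples for 8 genes of the ER and ATF4 lists, with symbols for the replicate labels and bars for geometric means. Fkbp11, Creld2, Manf, Hyou1, Selenos, Cth and Slc7a11 show no overlap of YFP- and YFP+ samples, while Hspa5 overlaps.

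Of 38 genes tested for entry into the ER and N-glycosylation, 13 rose and none fell, 23 rose under trimmed-mean scaling, and the median relative to all genes was 0.40 (SD 0.08 over label pairs). Srp19, a subunit of the signal recognition particle, rose by 0.73 (SE 0.12), from 84.5 to 105 CPM in YFP- up to 148 to 175 CPM in YFP+. Sec63, which couples the translocon to BiP, rose by 0.57, and Ssr2, a translocon-associated subunit, by 0.54. Without the YFP+ m3 sample 9 of the 38 rose on the deposited scale.

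ER-associated degradation, which returns misfolded proteins to the proteasome, was less even. Of 22 genes tested, 3 rose and 1 fell, against 11 and none under trimmed-mean scaling, and Derl3 was below the filter. Selenos, a selenoprotein of the retrotranslocation complex, rose by 0.95 (SE 0.12), from 327, 334, 292 and 316 CPM to 666, 681, 504 and 623 CPM. Herpud1, a scaffold of that complex, rose by 0.54, with YFP+ m3 at 325 CPM inside the YFP- range of 293 to 421 CPM. Os9, a lectin that delivers glycoproteins, fell by 0.81. The Os9 call ended under trimmed-mean scaling (-0.62, adjusted p = 0.074), without the block (adjusted p = 0.15) and without the YFP+ m3 sample (adjusted p = 0.10), and Herpud1 was no longer called without the block (adjusted p = 0.076).

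Transport between the ER and the Golgi gave 8 rises and 1 fall among 34 genes, with a relative median of 0.41, and 16 rises under trimmed-mean scaling. Lman1, a cargo receptor, went from 52.2 to 71.4 CPM in YFP- up to 97.2 to 123 CPM in YFP+, a rise of 0.86. Bet1, a SNARE of the route, rose by 0.62 and Sec24d, a coat subunit that picks cargo, by 0.53. Among the KDEL receptors, which bring back escaped chaperones, Kdelr3 rose by 1.0 at low level (0.31 to 0.99 CPM in YFP-, 0.74 to 2.65 CPM in YFP+, overlapping), a call that ended without the block (adjusted p = 0.11), and Kdelr1 fell by 0.50, a call lost under trimmed-mean scaling (adjusted p = 0.12). The sequence TGACGTGG, the core of the element bound by XBP1 and ATF6, occurred in the promoters of 5 of 29 genes of this list (17.2%), against 0.804% of tested genes and 0.607% of all promoters. Of these carriers, Kdelr3 and Sec24d rose, whereas Copb1, Copb2 and Sec23a were not called. Genes called higher had TGACGTGG in 9 of 341 promoters (2.64%) and genes called lower in 6 of 2003 (0.3%). The match is shown in capitals for 2 genes called higher, Kdelr3 (opposite strand, chr15:79516353-79516407, plus) and, from the chaperone list, Txndc11 (chr16:11134602-11134659, minus), an ER thioredoxin-like protein that rose by 0.80:
Kdelr3: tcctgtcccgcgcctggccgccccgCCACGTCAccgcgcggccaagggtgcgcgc
Txndc11: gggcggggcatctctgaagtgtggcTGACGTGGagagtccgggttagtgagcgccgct

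Targets of ATF4, which supply amino acids and cysteine, gave 8 rises and no fall among 29 genes, 13 rises under trimmed-mean scaling, and a relative median of 0.47 (SD 0.14). Cth, which makes cysteine, stood at 10.9, 6.61, 9.26 and 7.89 CPM in YFP- and 42.0, 31.6, 18.5 and 23.7 CPM in YFP+, and rose by 1.70 (SE 0.45, limma adjusted p = 0.018). Slc7a11, the cystine importer, stood at 3.34, 3.81, 2.97 and 4.18 CPM and at 13.1, 11.5, 6.63 and 7.65 CPM, and rose by 1.40 (SE 0.28). In both genes the groups did not overlap, and f2 and m2 were the higher YFP+ samples. Stc2, a secreted glycoprotein, rose by 0.93 and Psph, the last enzyme of serine synthesis, by 0.85.

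Asns, asparagine synthetase, is also an ATF4 target but spread too widely to be called. It read 569, 600, 485 and 522 CPM in YFP- and 972, 872, 234 and 692 CPM in YFP+, so m3 alone lay below the YFP- samples, and the difference was 0.17 (SE 0.42). The ATF4 list's relative median was 0.70 without the YFP+ m3 sample. TGATGNAA, the composite element bound by ATF4 with C/EBP factors, occurred in 8 of 26 promoters of the list (30.8%) and in 5 of 16 of the tRNA synthetase list (31.2%), against 2.22% of tested genes and 4.06% of all promoters. Carriers included Slc7a11 and Pycr1, which rose, and Asns, Atf3, Chac1, Nupr1, Slc1a4 and Trib3, which were not called. The synthetase carriers Aars, Gars, Iars, Tars and Yars were not called either. The first list was chosen as ATF4 targets, so its share says nothing about the sort. Over all calls TGATGNAA was in 13 of 341 promoters of genes called higher (3.81%) and 35 of 2003 of genes called lower (1.75%). The Slc7a11 promoter (chr3:50443628-50443704, minus strand) holds a pair of copies in opposite orientation, in capitals:
Slc7a11: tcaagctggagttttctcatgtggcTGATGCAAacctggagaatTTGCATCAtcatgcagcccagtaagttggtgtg

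The cytosolic tRNA synthetases differed from the other ATF4-linked genes in their spread. Relative to all genes, the median of the 23 genes was 0.69 for f2, 0.25 for m2, -0.09 for m3 and 0.01 for m4. Rars, for arginine, read 184, 155, 46.1 and 51.1 CPM in YFP+ f2, m2, m3 and m4 and 89.2 to 130 CPM in YFP-. Kars, for lysine, read 244, 210, 71.2 and 160 CPM in YFP+ and 165 to 216 CPM in YFP-. Neither was called, and Eef1e1, a small protein of the synthetase complex, was the only member that rose (0.57), with 5 under trimmed-mean scaling.

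Cytosolic chaperones showed the same division among the YFP+ samples. The chaperonin and prefoldin list, whose ring complexes fold actin and tubulin, had medians relative to all genes of 0.60, 0.33, -0.60 and 0.08 for f2, m2, m3 and m4. Cct4, a chaperonin subunit, stood at 433 to 496 CPM in YFP- and at 498, 525, 160 and 338 CPM in YFP+. Its prefoldin partner Pfdn4 rose by 0.47 and was the only call among 14, against 5 rises under trimmed-mean scaling. Of 22 heat shock genes tested, 1 rose and 2 fell, against 4 and 1 under trimmed-mean scaling, and the relative median was -0.02. Hspa8, the constitutive HSP70, stood at 3107, 2973, 2516 and 3525 CPM in YFP- and 2828, 2480.1, 729 and 1702 CPM in YFP+ and was not called (-0.81, SE 0.30, limma adjusted p = 0.074). The factor Hsf1, which drives this response, gave -0.23. Hspa1a and Hspa1b, the inducible HSP70 genes, were below the filter, with 0 to 24 reads in a stimulated library. Hspa4 rose by 0.44, Hspa4l fell by 0.81 and the kinase cochaperone Cdc37 fell by 0.35. The calls of Hspa4 (adjusted p = 0.089) and Cdc37 (0.052) ended without the YFP+ m3 sample.

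Mitochondrial chaperones and proteases gave 2 rises of 17, Hspe1 (0.58), which caps the HSP60 ring, and Clpp (0.46), a matrix protease, and 5 rises under trimmed-mean scaling. In the proteasome list none of the 34 genes was called on the deposited scale, while 20 rose under trimmed-mean scaling. Its relative median of 0.34 was positive in every label (0.18 to 0.47). Psmb8, Psmb9 and Psmb10, subunits of the immunoproteasome, were not in this list and fell. Ribosome biogenesis factors gave 5 rises of 39 and 14 under trimmed-mean scaling, among them Npm1, a nucleolar chaperone, at 1418 to 1974 CPM in YFP- and 2096 to 2609 CPM in YFP+ (0.48).

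**Figure D3:**
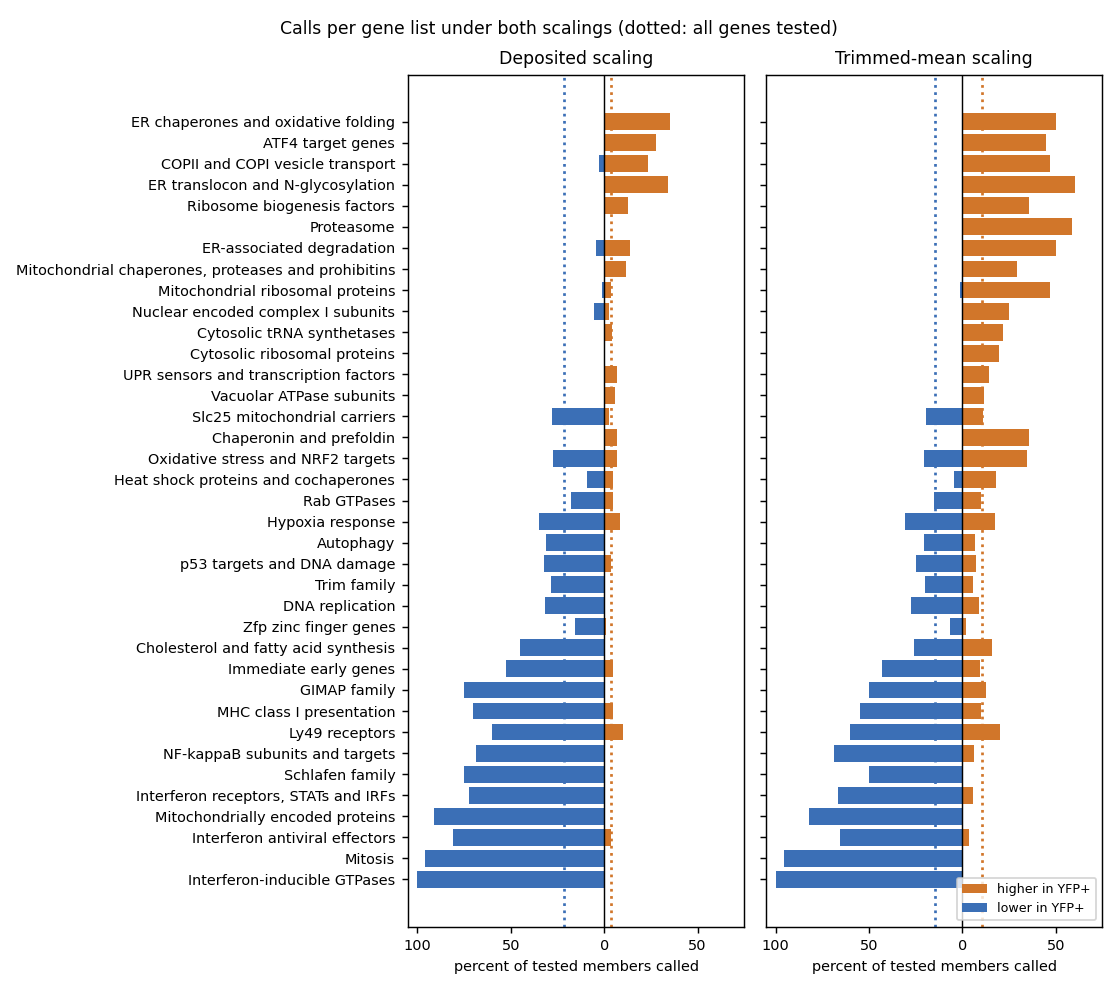
Percent of the tested members of each list called higher (orange, right) or lower (blue, left) in YFP+, with the deposited scaling and with trimmed-mean scaling. Dotted lines mark all genes tested: 3.61% higher and 21.4% lower on the left, 10.5% and 14.8% on the right.

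Oxidative stress genes moved in both directions. Of 29 tested, 2 rose (6.90%) and 8 fell (27.6%), beside 3.61% and 21.4% of all genes. Under trimmed-mean scaling 10 were called higher (34.5%) and 6 lower (20.7%), beside 10.5% and 14.8% of all genes. The median relative to all genes was 0.01. The list's own median was -0.18 on the deposited scale and 0.01 under trimmed-mean scaling. Osgin1, an NRF2 target that restrains growth, fell by 2.52 (SE 0.20), from 20.7, 19.2, 13.2 and 15.5 CPM to 3.72, 4.50, 1.69 and 2.61 CPM. Txnip, which binds and blocks thioredoxin, fell by 1.61, and its 4 YFP+ values (9.20 to 13.2 CPM) all lay below the YFP- values (25.2 to 55.9 CPM). Gpx4, which detoxifies lipid peroxides, fell by 1.09, and reads shared with near-identical copies were not examined. Hmox1, heme oxygenase, went the other way, from 139, 152, 115 and 128 CPM to 309, 261, 189 and 208 CPM (0.84, SE 0.20). Nfe2l2, which encodes NRF2, was not called (-0.47).

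Among 23 hypoxia genes 2 rose and 8 fell, against 4 and 7 under trimmed-mean scaling, and members that fell included Slc16a3, a lactate exporter, by 1.44, Bnip3l by 1.45 and Bnip3, also a mitophagy receptor, by 1.28. Vegfa, an angiogenic growth factor, rose by 1.12, from 12.8 to 19.4 CPM in YFP- up to 23.3 to 49.8 CPM in YFP+. Hif1a gave -0.07 and was not called.

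Among 28 p53 and DNA damage genes 1 rose and 9 fell, against 2 and 7 under trimmed-mean scaling. Trp53 mRNA fell by 0.81, from 604, 619, 388 and 461 CPM to 373, 317, 204 and 290 CPM. Fas, a death receptor, fell by 1.86 and Gadd45b by 1.19, while Plk3, a stress kinase, rose by 1.41. Cdkn1a, the p21 inhibitor of the cell cycle, lay between 302 and 429 CPM in YFP- and between 350 and 394 CPM in YFP+ and was not called (-0.05). Autophagy genes gave 9 falls of 29 and no rise, with 6 falls and 2 rises under trimmed-mean scaling. The selective receptors Calcoco1, Optn and Sqstm1 fell by 1.80, 1.33 and 0.73, and Atg10, a conjugating enzyme, by 1.11. In the hypoxia, p53 and autophagy lists 34.8%, 32.1% and 31.0% of genes fell, beside 21.4% of all genes. The relative medians of these lists were -0.10, -0.15 and -0.11. They were small beside those of the ER chaperone (0.54) and ATF4 target (0.47) lists. The oxidative stress (0.01) and heat shock (-0.02) lists had smaller ones.

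Interferon receptors, their signal transducers and their effector genes were mostly lower in YFP+ samples. Of 18 receptors, STATs and IRFs tested, 13 fell and none rose, against 12 and 1 under trimmed-mean scaling, and the relative median was -0.64 (SD 0.19). Ifngr1, the ligand-binding chain of the interferon gamma receptor, stood at 265, 266, 198 and 187 CPM in YFP- and 83.9, 73.3, 13.9 and 47.8 CPM in YFP+, a fall of 2.33 (SE 0.36, limma adjusted p = 8.2e-04). The groups did not overlap, m3 was the lowest, and the fall was called without it too. Ifngr2, the other chain, was below the filter, at 0 to 15 reads per stimulated library.

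Ifnar1, a chain of the type I receptor, fell by 0.55, a call that ended under trimmed-mean scaling (-0.36, adjusted p = 0.10). Stat4, which relays interleukin 12 and type I interferon, fell by 2.03. Irf7 went from 23.4, 20.7, 23.1 and 12.8 CPM to 6.66, 5.01, 5.61 and 3.11 CPM (-1.98), and Irf1 from 39.0, 34.2, 26.3 and 29.2 CPM to 15.8, 13.1, 4.56 and 5.48 CPM (-1.91). Both factors are themselves interferon-induced. Irf8, a lineage factor of this family, did not follow: it read 2470, 2877, 1970 and 2416 CPM in YFP- and 3169, 2867, 1757 and 2257 CPM in YFP+ (0.02).

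Interferon-inducible GTPases, which attack the vacuoles of intracellular microbes, fell in 15 of 15 tested members under both scalings and without the YFP+ m3 sample, at a relative median of -1.70. The medians by label were -1.0 for f2, -1.97 for m2, -1.85 for m3 and -2.23 for m4. For 14 of the 15 the groups did not overlap. Near-identical copies in the Gbp, Tgtp, H2-Q, Klra and Gimap families may share reads, so single members are uncertain. Tgtp2 fell by 3.32 (SE 0.32), from 13.4 to 19.5 CPM in YFP- to 0.58 to 2.96 CPM in YFP+. Gbp2 fell by 2.63, from 10.4, 28.6, 8.99 and 14.2 CPM to 4.41, 3.76, 1.93 and 0.778 CPM, and Gbp7 by 1.92, from 42.9, 62.9, 37.2 and 32.8 CPM to 15.9, 15.0, 9.81 and 6.88 CPM. The interferon-stimulated response element, searched as TTTCNNTTTC, was in 9 of 10 promoters of this list (90.0%) and in 8 of 19 of the antiviral list (42.1%), against 3.10% of tested genes and 3.49% of all promoters. Over all calls it was in 17 of 341 promoters of genes called higher (4.99%) and 89 of 2003 of genes called lower (4.44%). It is shown in capitals for Gbp2 (chr3:142620579-142620638, plus strand), Gbp3 (chr3:142559974-142560039, plus), Irgm1 (chr11:48871421-48871475, minus) and Tgtp2 (chr11:49064248-49064307, minus). Gbp3 and Irgm1 have a pair of overlapping copies, and the copies of Irgm1 and Tgtp2 run on the opposite strand:
Gbp2: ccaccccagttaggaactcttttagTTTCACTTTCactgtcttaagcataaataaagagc
Gbp3: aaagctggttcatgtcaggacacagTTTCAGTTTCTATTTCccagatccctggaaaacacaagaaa
Irgm1: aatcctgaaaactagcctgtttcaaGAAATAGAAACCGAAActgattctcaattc
Tgtp2: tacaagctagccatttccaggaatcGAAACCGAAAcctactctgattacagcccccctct

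Gbp3 fell by 2.30, and Irgm1, a regulator of the other immunity-related GTPases, by 0.89. Antiviral effectors gave 21 falls and 1 rise among 26 tested of 35 listed, against 17 and 1 under trimmed-mean scaling, with a relative median of -0.87 (SD 0.04). Lgals3bp, a secreted lectin-binding protein, fell by 1.19. Usp18, which removes ISG15 and dampens the receptor, fell by 1.18, with overlapping groups, and Zbp1, a nucleic acid sensor, by 1.16. Bst2 (tetherin), which holds virions at the membrane, was the 1 that rose, by 0.41, and that call ended without the YFP+ m3 sample (adjusted p = 0.087). Ifit1, Ifit3, Rsad2 and Mx2 were among the 9 members below the filter. The Schlafen family gave 3 falls of 4, and 2 under trimmed-mean scaling. The GIMAP family, small GTPases of lymphocytes, gave 6 falls of 8, against 4 falls and 1 rise under trimmed-mean scaling. Gimap7 fell by 1.90, from 47.0 to 54.9 CPM in YFP- to 9.01 to 16.3 CPM in YFP+, and Slfn2 by 0.87.

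**Figure D4:**
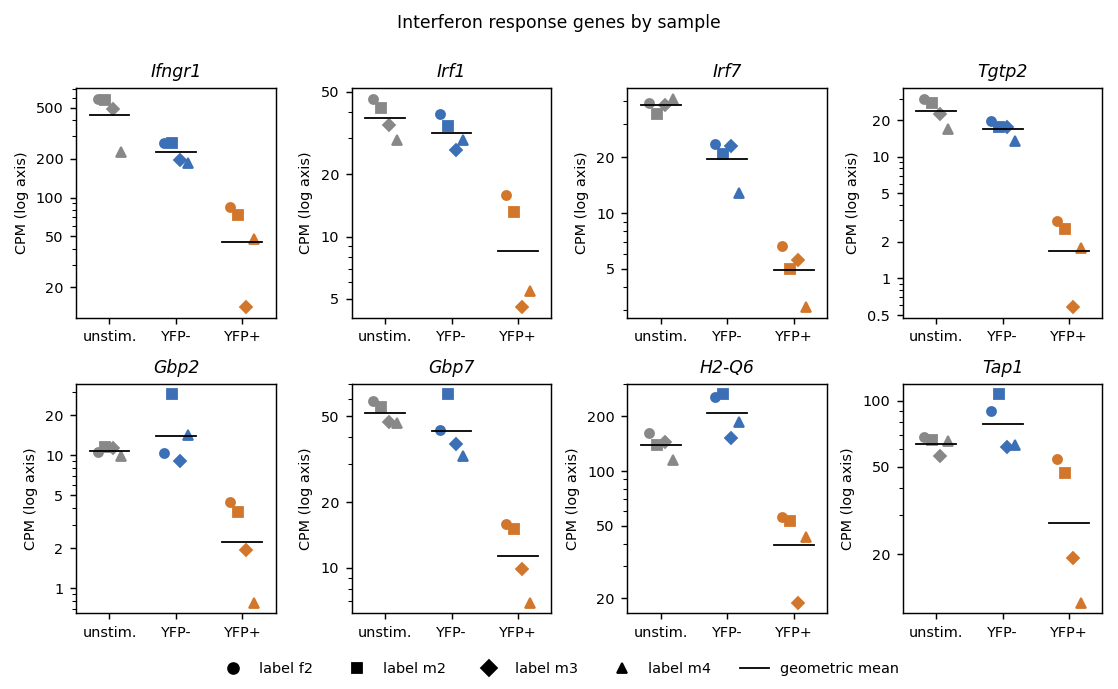
CPM on a log axis in each of the 12 samples for 8 interferon response genes, with symbols for the replicate labels and bars for geometric means. All YFP+ values lie below all YFP- values for the 8 genes, and YFP+ m3 or m4 is the lowest sample in each.

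Class I antigen presentation fell in 14 of 20 genes and rose in 1, with 11 and 2 under trimmed-mean scaling and a relative median of -0.46 (SD 0.16). H2-Q6, a nonclassical class I gene with close copies, fell by 2.41. The peptide transporter gene Tap1 stood at 90.0, 107, 61.3 and 62.6 CPM in YFP- and 54.2, 47.0, 19.3 and 12.0 CPM in YFP+, a fall of 1.49. Psmb9, a subunit of the immunoproteasome, fell by 1.28. The classical genes H2-K1 and H2-D1 fell by 0.65 and 0.64, and the light chain B2m by 0.50, the last no longer called under trimmed-mean scaling (-0.31, adjusted p = 0.052). H2-M3, which presents formylated peptides, rose by 0.48.

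Markers of other cell types moved in both directions. Of 8 dendritic cell markers, 5 were tested and all 5 fell, H2-Aa, H2-Ab1, Cd74, Xcr1 and Zbtb46, and the summed level of the list was 83.8 to 102 CPM in YFP- and 27.9 to 35.6 CPM in YFP+. Of these, H2-Ab1 held 80.9 to 94.7 CPM in unstimulated samples, and the defining markers Flt3, Clec9a and Siglech were at most 0.184 CPM in every stimulated library. The B cell list fell in 2 of 2 tested of 7 and summed to 174 to 324 CPM in YFP- and 57.1 to 168 CPM in YFP+, nearly all of it Ighm. Cd79b, the other member tested, read 0.599 to 2.32 CPM in YFP- and 0.0552 to 1.25 CPM in YFP+ (-1.79). The untested members were at most 0.486 CPM (Cd79a) in every stimulated library, with Ms4a1 and Pax5 at most 0.0451 CPM. Of 10 T cell markers 5 were tested, of which Trac rose by 0.51, Cd3d and Cd3g fell by 0.61 and 0.73, and Trbc2 (0.21) and Cd6 (0.51) were not called. Their summed level was 301 to 375 CPM in YFP- and 368 to 421 CPM in YFP+, most of it Trbc2, while Cd4, Cd8a and Cd8b1 were at most 0.193 CPM and Cd3e was 0.326 to 1.49 CPM in YFP- and at most 0.0829 CPM in YFP+. The macrophage list summed to 27.4 to 44.4 CPM in YFP- and 14.7 to 24.0 CPM in YFP+, nearly all of it Cd68, which fell by 0.96. Cd14 read 0.285 to 1.20 CPM in YFP- and 0.225 to 0.424 CPM in YFP+ and was not called (-1.0). The untested members were at most 0.311 CPM (Csf1r) in every stimulated library, with Lyz2 and Adgre1 at most 0.0311 CPM. Of 7 such markers 2 were tested and 1 fell. Of 6 markers of other innate lymphoid cells 2 were tested and both fell, Gata3 by 0.99 and Il7r from 1.08 to 1.69 CPM in YFP- to at most 0.166 CPM in YFP+. Il1rl1, below the filter, was at 0.158 to 0.507 CPM in YFP- and 0.871 to 1.88 CPM in YFP+. Of 8 granulocyte and mast cell markers 2 were tested, Mcpt8, which rose by 0.61, and Cpa3, which fell by 1.57. Of 5 erythroid markers none passed the filter, and their sum was at most 0.158 CPM. The part of other cells in the interferon and class I results was not tested, and in bulk samples fewer cells of a type and less RNA per cell cannot be told apart. Of the 10 NK markers, Nkg7 rose and Klrb1c, Ncr1, Eomes, Klre1 and Il2rb fell.

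NF-kappaB genes, which form the inflammatory arm of receptor signalling, gave 11 falls of 16 under both scalings, with 1 rise under trimmed-mean scaling. Icam1, an adhesion molecule, stood at 315, 308, 190 and 263 CPM in YFP- and 112, 92.7, 16.4 and 34.2 CPM in YFP+ (-2.42, SE 0.30). The inhibitor Nfkbie fell by 1.98, the other inhibitor Nfkbia by 0.85 and the survival gene Birc3 by 1.69. The subunit Rela fell by 0.97, with overlapping groups and a call that ended without the block (adjusted p = 0.064). Immediate early genes gave 11 falls and 1 rise among 21, against 9 and 2 under trimmed-mean scaling, with Nr4a1, Egr3 and Fos falling by 3.44, 3.32 and 1.77, and Dusp2, a nuclear kinase phosphatase, rising by 0.62.

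Mitosis genes fell in 22 of 23 cases under both scalings and without the YFP+ m3 sample, at a relative median of -1.34 (SD 0.14), and the same 22 did not overlap between groups. Ccnb2, a mitotic cyclin, stood at 88.7, 73.7, 58.8 and 53.3 CPM in YFP- and 13.5, 13.6, 12.9 and 9.52 CPM in YFP+ (-2.45, SE 0.13). Cenpf, a kinetochore protein, fell by 2.51, Nusap1, which bundles spindle microtubules, by 2.45 and Cdc20, an activator of the anaphase complex, by 1.22. Cdk1 was the member not called, at 66.1 to 83.0 CPM in YFP- and 52.4 to 75.1 CPM in YFP+ (-0.07, and 0.12 under trimmed-mean scaling). Pimreg, a further mitotic gene, was among the 10 largest falls of all genes (-3.13). DNA replication genes were less affected, with 7 falls of 22, against 6 falls and 2 rises under trimmed-mean scaling, and a relative median of -0.17. Rrm2, a ribonucleotide reductase subunit, and the helicase subunit Mcm7 fell by 1.61 and 1.44. TTTGAA, the cell cycle homology region bound by MuvB complexes, occurred in 13 of 18 promoters of the mitosis list (72.2%) and in 1 of 18 of the replication list (5.56%), against 12.5% of tested genes and 18.1% of all promoters. TTTGAA was also in 7 of 10 promoters of the Ly49 list (70%) and 5 of 10 of the interferon-inducible GTPase list (50%). It was therefore not particular to mitosis genes. Genes called higher had it in 30 of 341 promoters (8.8%) and genes called lower in 302 of 2003 (15.1%). It is shown for Cdc20 (chr4:118437344-118437386, minus strand), in capitals:
Cdc20: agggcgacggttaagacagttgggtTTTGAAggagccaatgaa

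Lipid synthesis genes gave 14 falls and no rise among 31, and 8 falls and 5 rises under trimmed-mean scaling. Elovl6, which elongates fatty acids, fell by 1.58, and Dhcr7, the last enzyme of cholesterol synthesis, by 1.16.

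Mitochondrial and nuclear genes of the respiratory chain and the ribosome parted. Of the 11 mitochondrially encoded proteins tested, 10 fell on the deposited scale and 9 under trimmed-mean scaling, at a relative median of -0.76 (SD 0.28). mt-Co1, a cytochrome oxidase subunit, fell by 1.46, mt-Nd5 of complex I by 1.39 and mt-Cytb of complex III by 1.11, while mt-Nd3 was not called (-0.17, and 0.02 under trimmed-mean scaling). Reads on the mitochondrial chromosome were 0.629 to 0.861% of YFP- and 0.320 to 0.418% of YFP+ libraries. By contrast, 1 of 36 nuclear complex I genes rose and 2 fell, with 9 rises and no fall under trimmed-mean scaling, and their relative median was 0.30 (SD 0.15). Mitochondrial ribosomal proteins gave 3 rises and 1 fall of 77, and 36 rises and 1 fall under trimmed-mean scaling, at a relative median of 0.30 that varied little over labels (0.27 to 0.33). Mrps28 rose by 0.70 and Mrps12 by 0.48, and Mrpl14 fell by 1.01. None of the 82 cytosolic ribosomal protein genes tested was called on the deposited scale (relative median 0.22), and 16 rose under trimmed-mean scaling.

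**Figure D5:**
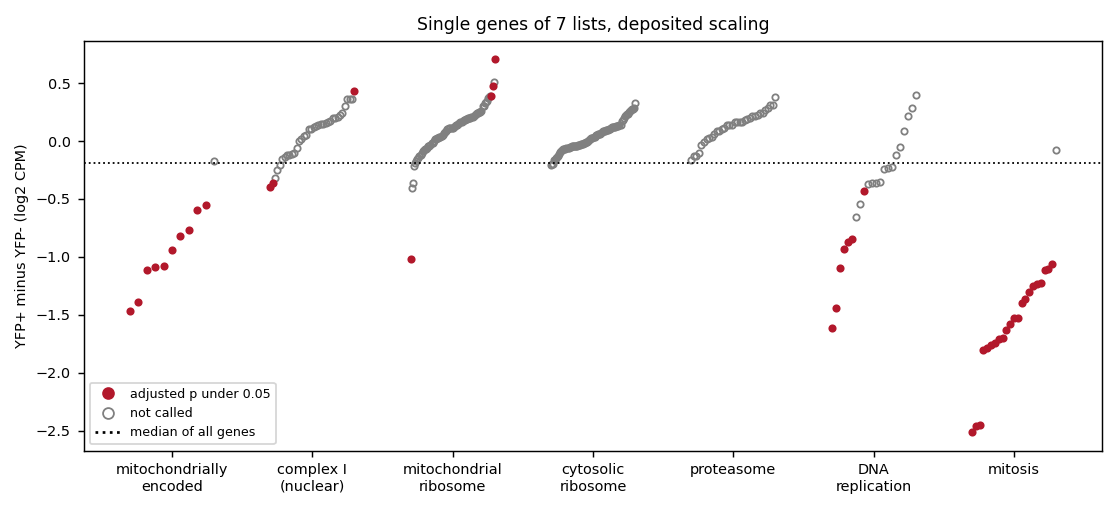
Log2 difference (YFP+ minus YFP-, deposited scaling) of every tested member of 7 lists, ordered within each list, with called genes in red and the median of all genes (-0.19) dotted. Mitochondrially encoded and mitosis genes lie below the line with 1 uncalled exception each, and the ribosomal and proteasome genes cluster just above it.

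The families described next, other than the Ly49 receptors, stayed nearer the background. Of all genes tested 3.61% rose and 21.4% fell, and 10.5% and 14.8% were called under trimmed-mean scaling. Of 267 Zfp zinc finger genes tested, 3 rose and 42 fell, against 5 and 18 under trimmed-mean scaling, and Zfp36, which promotes decay of cytokine mRNAs rather than binding DNA, fell by 1.38. Trim genes gave 10 falls of 35, against 7 falls and 2 rises under trimmed-mean scaling. Rab genes gave 7 falls and 2 rises of 40, against 6 and 4, led by Rab37, a vesicle GTPase, at 29.3, 28.8, 22.9 and 23.7 CPM in YFP- and 6.19, 6.71, 4.34 and 5.54 CPM in YFP+ (-2.21). Slc25 mitochondrial carriers gave 10 falls and 1 rise of 36, against 7 and 4 under trimmed-mean scaling, and their median relative to all genes was 0.16. The list's own median was -0.03 on the deposited scale and 0.16 under trimmed-mean scaling, a shift shared with all genes. Vacuolar ATPase subunits gave 1 rise of 17, Atp6v0a1 (1.04), against 2 under trimmed-mean scaling, and a relative median of 0.17. Their own median was -0.01 on the deposited scale and 0.18 under trimmed-mean scaling. By contrast, 6 of 10 Ly49 receptors fell and 1 rose (6 and 2 under trimmed-mean scaling), at a relative median of -0.53. Klra6, Klra1 and Klra8 fell by 1.64, 0.95 and 0.93, though these receptors share much sequence.

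The 10 largest rises among genes of mean log2 CPM 2 or more, each in 1 direction in every label pair, were Pdzk1ip1 (3.51), Ccn4 (3.09), Ifng (2.86), Anxa8 (2.62), Crabp2 (2.31), Fkbp11 (2.03), Spns2 (2.02), Tmem51 (1.89), Il23a (1.87) and Tnfrsf4 (1.80). The 10 largest falls were Klrb1c (-3.59), Mgll (-3.52), Ltb (-3.47), Apol7e (-3.46), Nr4a1 (-3.44), Tgtp2 (-3.32), Egr3 (-3.32), Klrb1b (-3.23), Pimreg (-3.13) and Asb2 (-3.01). Crabp2, which carries retinoic acid, was nearly silent without stimulation (0 to 0.0263 CPM) and read 2.66, 2.05, 1.5 and 2.32 CPM in YFP- and 11.8, 12.5, 8.18 and 9.64 CPM in YFP+. Mgll, which hydrolyses the endocannabinoid 2-arachidonoylglycerol, did the reverse between the stimulated groups, with 17.2, 16.9, 10.6 and 27.5 CPM in YFP- and 0.858, 1.97, 0.912 and 3.05 CPM in YFP+. Klrb1c encodes NK1.1, the receptor bound by the stimulating antibody, and read 76.6, 86.6, 57.6 and 80.5 CPM in YFP- and 8.97, 7.61, 3.70 and 5.72 CPM in YFP+.

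RNA classes also differed. Processed pseudogenes had 35 falls of 1269 tested (2.76%), and lincRNAs 45 falls of 146 (30.8%), antisense genes 37 of 132 (28.0%) and protein coding genes 2425 of 10416 (23.3%). Rises were 13, 8, 4 and 417 in the same order. Under trimmed-mean scaling processed pseudogenes had 47 calls higher and 17 lower, and lincRNAs 11 and 32. Antisense genes then had 8 and 27, and protein coding genes 1218 and 1668. Among protein coding genes, 5 bins of transcript length, from shortest to longest, had median differences of -0.10, -0.29, -0.23, -0.21 and -0.24. In the longest bin the median was -0.45 for f2 and -0.03 for m3. Median transcript lengths were 2697 bases for the ER chaperones and 3528 bases for the interferon GTPases, beside 2982 bases for all genes tested.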

How the data were processed

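RNA of sorted NK cells was sequenced in 12 samples, of which 4 YFP+ and 4 YFP- samples were compared. The values are moderated log2 CPM, in a single table deposited by the authors, and the submitters' processing notes name bcl2fastq, STAR 2.7.9a, featureCounts 2.0.3 (Subread) and build GRCm38. The strand setting of the counting is not given in the sources used here. The table's 55774 lines held 287 repeats, which were dropped, and 0 sample columns belonged to no sample. Whole reads were recovered from the deposited log2 values for 100% of values (tolerance 0.01 reads, largest deviation of the rebuilt log2 CPM 5.15e-14). Because the unit is a moderated log2 value, limma 3.58.1 (R 4.3.3) was fitted to it, with trend, over 12 samples with group and replicate label as terms, and p-values were adjusted over 12364 genes by the Benjamini-Hochberg method. A gene was tested if 4 or more samples exceeded 0 on that scale. Trimmed-mean scaling was computed from the recovered reads over tested genes. The code was tested on simulated data.

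Deviations from the group means correlated between YFP+ and YFP- samples of the same label at 0.0539 (f2), 0.350 (m2), 0.374 (m3) and 0.172 (m4), and the labels do not say that a label marks a shared mouse. The label was kept as a block, and the fit without it is an alternative. Named genes were a panel, up to 3 called members per list averaging 2 or more in log2 CPM and moving in 1 direction in 4 of 4 label pairs, and the 10 largest rises and falls. Further genes were named for a promoter motif, to complete a role or after their values were seen. The gene lists and the comparison itself were chosen with earlier results of these data known. Other alternatives covered filters, pseudocount, scaling, 359 rRNA-like features, trend, voom weights, left-out samples and thresholds. Promoters were RefSeq's (GRCm38.p6). Python 3.11.15 and matplotlib 3.10.9 were used. Some members of the lists are not reported here by name.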

Additional observations from a re-analysis of the deposited data

Results flagged for a closer look

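A sample was singled out where its gap to the nearest of the other 3, divided by the range of its group of 4 on a log2 scale, exceeded Dixon's critical value. Of 320 such groups of the named genes 13 were singled out (4.06%), and chance gives about 1 in 20. Among YFP- samples, m3 was lowest for Hsf1 (30.4 CPM against 42.1 to 44.9), Cdc37 (345 CPM against 401 to 410), Gimap3 (134 CPM against 183 to 192) and Nfkbia (1100.4 CPM against 1543.6 to 1581.5). YFP- m4 was highest for Eef1e1 (161 CPM against 122 to 124) and lowest for Egr3 (21.5 CPM against 27.5 to 28.1), and YFP- m2 was highest for Klra6 (16.7 CPM against 10.8 to 11.5). Among YFP+ samples, m3 was lowest for Bnip3 (3.01 CPM against 5.2 to 5.6), Tmem51 (11.9 CPM against 22.2 to 23.5) and Psph (363 CPM against 458 to 465). YFP+ m4 was lowest for Ccnb2 (9.52 CPM against 12.9 to 13.6), Cdk1 (52.4 CPM against 72.6 to 75.1) and B2m (1169.4 CPM against 1255.8 to 1259.6). Of 38 differences by label over lists, 1 was singled out: vacuolar ATPase subunits stood at 0.408 (log2, relative to all genes) in f2 and at 0.0946 to 0.147 in the other labels.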

How the results depend on the processing

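The count of called genes was 3098 and the share of calls higher in YFP+ 14.4%. The count fell below this by more than 1.5 times without the low-value filter (1398), with an added log2 change of at least 1 (1345) and at an adjusted p under 0.01 (1684), settings that demand more by construction or test more features. Leaving out 1 label gave 1810 to 2745 calls. The count also fell by more than 1.5 times without m4 (1810) and without m2 (1814). In these 2 settings 57.5% and 57.9% of the main calls were kept. The share higher was 41.5% with trimmed-mean scaling, 51.4% after centring on medians, 44.5% for voom, 46.2% with quantile normalization, 41.1% with trimmed-mean scaling without YFP+ m3 and 41% with trimmed-mean scaling without the block. It was 16.7% with only the 8 stimulated samples and also with a pseudocount of 1 CPM, 11.6% without the filter, 7.21% with the added log2 change and 9.44% at the stricter p, and 9.32 to 17.3% when 1 label was left out. Of the relative medians of 38 lists, 13 moved by more than their SD over label pairs with quantile normalization, and 1 more turned sign. Without the filter 28 moved and 2 more turned. Relative to all genes, the median of Slc25 carriers turned from 0.16 to -0.0270 without the filter. That of vacuolar ATPase subunits turned from 0.17 to -0.0149 without it and to -0.0130 with quantile normalization. The lists' own medians are the same without the filter, and the turn there comes from the median of all features, which is then 0. For quantile normalization the cause was not tested. Without the replicate block 2691 genes were called, 2598 of them shared with the main calls, and of 160 named genes the calls of Os9 (adjusted p = 0.149), Herpud1 (0.0763), Zfp212 (0.125), Dnajc3 (0.0538), Kdelr3 (0.109) and Rela (0.0636) ended. Of the 160 named genes, 13 had the other sign under at least 1 alternative, none of them called in the comparison as reported. The 2 settings that combine trimmed-mean scaling with leaving out YFP+ m3 or the block were chosen after seeing the data. At this depth, genes under about 0.0553 to 0.0933 CPM (3 reads) cannot be compared.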
